A study of Taxus mairei and Taxus cuspidata and Taxus x media with 9 samples.

Results

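The deposited annotation of the *Taxus* co-assembly gives 27 of 33895 unigenes the GO terms choline dehydrogenase activity and alcohol metabolic process, and these 27 unigenes are the enzymes described here. All 27 carry both terms. Earlier results of the same libraries were known when they were taken as a group: they were chosen from the annotation because almost all of them differed between *T. mairei* and *T. cuspidata*, so that comparison is given only as a description. Poly(A) RNA was sequenced from twigs, labelled as wood and needles, of 3 yew species grown at 25 °C with 12 h of light. The groups were *T. media*, a hybrid yew with *T. cuspidata* as one parent, *T. mairei*, a Chinese yew, and *T. cuspidata*, the Japanese yew, each with 3 libraries from trees 3 years old, and the labels name no treatment. The methods give 5 trees per species and no source states which trees went into which library, so the p-values measure only the spread between these libraries.

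Glucose-methanol-choline (GMC) oxidoreductases are flavoproteins that hold FAD and oxidise an alcohol group of their substrate. Bacterial and animal choline dehydrogenases, which turn choline into betaine aldehyde, gave the family part of its name, whereas plants make betaine aldehyde with a choline monooxygenase. In plants the family includes the mandelonitrile lyases known from *Prunus*, which split mandelonitrile into benzaldehyde and hydrogen cyanide, and HOTHEAD (HTH), an *Arabidopsis* protein needed for a closed cuticle and for keeping floral organs apart. Yews are known to contain taxiphyllin, a cyanogenic glucoside whose core is a hydroxymandelonitrile.

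The other annotations of the 27 unigenes point to these plant branches of the family more than to choline. FAD binding was annotated for all 27. The KEGG ortholog was mandelonitrile lyase in 23, and these were all the unigenes of the assembly with that ortholog, while 4 had no ortholog. No unigene among the 27, or in the whole assembly, carried the KEGG ortholog of choline dehydrogenase. By deposited name, 18 were At1g73050, an *Arabidopsis* locus for a mandelonitrile lyase-like protein, 4 were MDL4 and 1 was MDL2, names of *Prunus* mandelonitrile lyases, and 4 were HTH. The 4 HTH unigenes were also the only ones of the assembly annotated with fatty acid omega-oxidation, a step that makes dicarboxylic acids for cutin, and the 5 MDL unigenes were annotated to the vacuole. "Choline dehydrogenase" is therefore used here only as the name of the GO term.

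The unigenes were 205 to 1969 bp long, with a median of 511 bp against 509 bp for all unigenes. Of the 27, 3 were over 1500 bp (comp24451_c0 at 1969 bp, comp26298_c0 at 1944 bp and comp28191_c0 at 1641 bp), 22 were at most 1000 bp and 4 were under 300 bp. They came from 23 components of the assembly, 4 of which held a pair of them. Expression was given by the authors as TPM, reads per length scaled to one total per library, so levels can be set beside each other between unigenes. This is less certain for the 4 whose effective length (the length left for a fragment to start in) was under 100 bp. It is also less certain for the 6 unigenes with several transcripts. Of these, comp17112_c0 had 317 reads and 27.6 TPM in *T. mairei* replicate 1 but 261 reads and 42.9 TPM in replicate 2. Reads and TPM thus ranked these libraries in opposite order, and the part of the transcript mix was not tested. In 13 unigenes every one of the 9 libraries had a TPM above 0. Listed at 0 in all 3 libraries of a species were 3 unigenes in *T. media* (6.45% of all unigenes), 1 in *T. mairei* (6.38%) and 8 in *T. cuspidata* (10.1%). Whether a unigene listed at 0 in a species is missing from its RNA or differs too much in sequence from the assembled one was not tested. Near-identical unigenes of one family can share reads, and how such reads were divided is not given in the sources used here.

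The 8 libraries with counts held 32783233 to 44821305 reads on unigenes, and *T. mairei* replicate 3 has TPM and RPKM only. Library RNA differed in its mix of tissue markers. The 40 unigenes named for needle genes (chlorophyll-binding proteins, Rubisco small subunit and photosystem subunits) summed to 17961 to 32100 TPM in *T. media*, 3007 to 5268 TPM in *T. mairei* and 38370 to 45551 TPM in *T. cuspidata*, with 0, 13 and 15 of them listed at 0 in every library of the species. The 7 wood markers summed to 93.9 to 102 TPM in *T. media*, 107.7 to 133 TPM in *T. mairei* and 84.2 to 95.8 TPM in *T. cuspidata*, with 1 of them listed at 0 in every *T. cuspidata* library. Fewer cells of a type and less RNA per cell cannot be told apart in such twigs, and the part of these markers in the differences below was not tested.

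**Figure D1:**
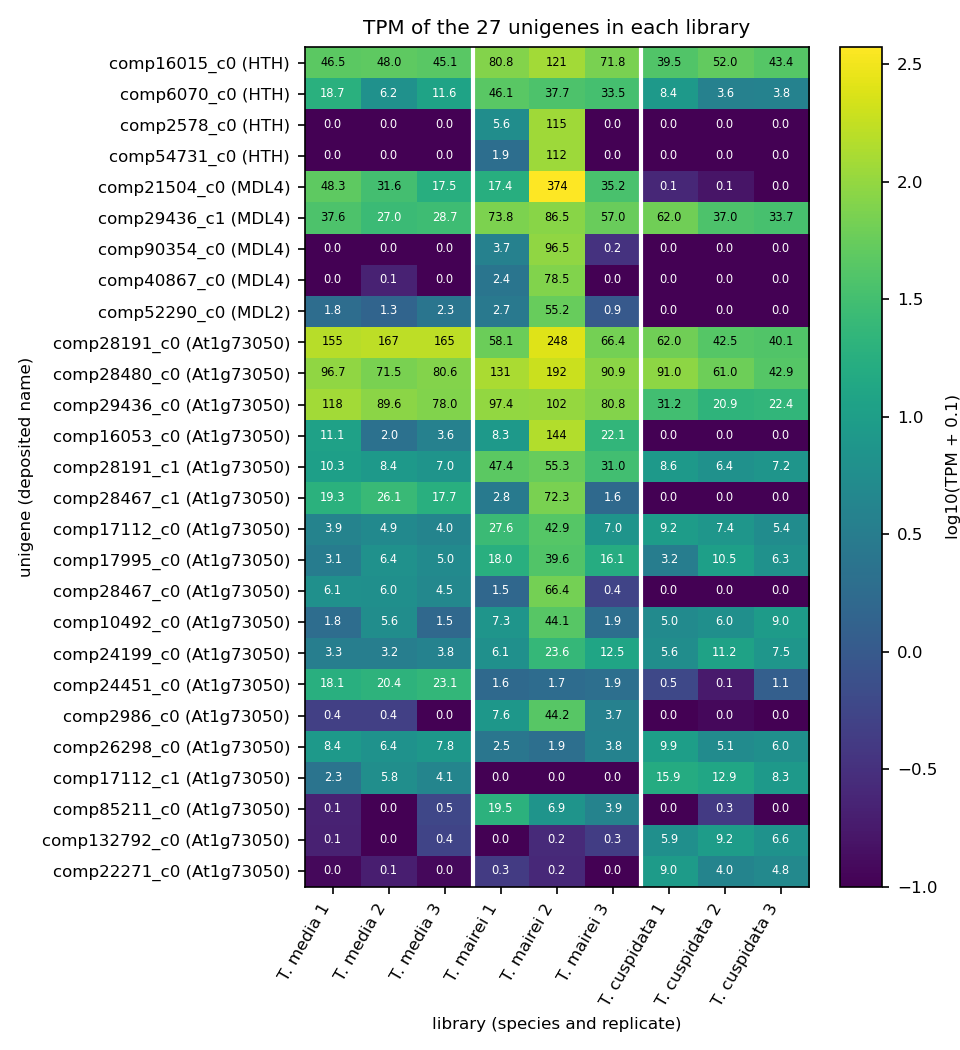
TPM of the 27 unigenes (rows, grouped by deposited name and ordered by mean TPM) in the 9 libraries (columns), coloured by log10(TPM + 0.1) with the TPM rounded in each cell. Dark cells in the *T. cuspidata* columns include the 8 unigenes listed at 0 there, and the column of *T. mairei* replicate 2 holds the highest *T. mairei* value of 20 unigenes.

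Summed over the 27 unigenes, the libraries had 612, 539 and 512 TPM in *T. media*, 671, 2161 and 543 TPM in *T. mairei* and 367, 290.1 and 248 TPM in *T. cuspidata*. Every library of *T. media* and *T. mairei* lay above every *T. cuspidata* library, and *T. mairei* replicate 2 stood far above all others. The means were 554 ± 51.8 TPM in *T. media*, 1125 ± 899.6 TPM in *T. mairei* and 302 ± 60.3 TPM in *T. cuspidata* (SD, n = 3 each), so *T. media* and *T. mairei* did not differ beyond their spread. The 18 At1g73050 unigenes held most of this sum in *T. media* (430 ± 26.6 TPM), in *T. mairei* (622 ± 403 TPM) and in *T. cuspidata* (207 ± 45.6 TPM). The 5 MDL unigenes averaged 65.4 ± 20.2 TPM in *T. media*, 295 ± 343 TPM in *T. mairei* and 44.3 ± 15.5 TPM in *T. cuspidata*. For the 4 HTH unigenes the means were 58.7 ± 5.79 TPM in *T. media*, 208 ± 154 TPM in *T. mairei* and 50.2 ± 4.72 TPM in *T. cuspidata*. Of these, comp2578_c0 and comp54731_c0 had effective lengths of 27.3 and 25.1 bp, so that 232 and 207 reads in *T. mairei* replicate 2 became 115 and 112 TPM. Without this pair, an alternative added after seeing the values, the HTH mean in *T. mairei* was 130.1 ± 26.6 TPM.

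**Figure D2:**
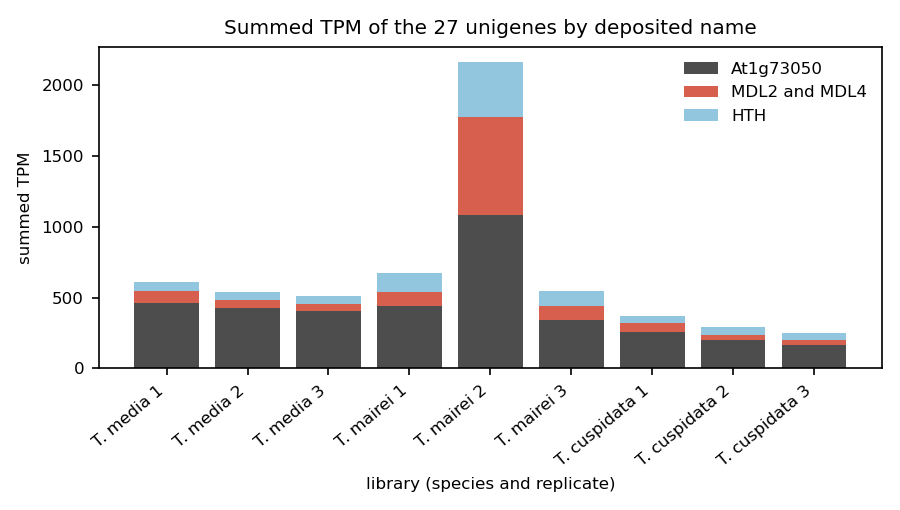
Summed TPM of the 27 unigenes in each library, stacked by deposited name (18 At1g73050, 5 MDL2 and MDL4, 4 HTH). *T. mairei* replicate 2 reaches 2161 TPM, while the other libraries lie between 248 and 671 TPM.

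The 3 highest unigenes of a library made up 60.6 to 63.2% of the sum in *T. media*, 37.7 to 46.1% in *T. mairei* and 50.9 to 58.6% in *T. cuspidata*. The unigene comp28480_c0 (At1g73050, 772 bp) was among these 3 in every library, with 96.7, 71.5 and 80.6 TPM in *T. media*, 131, 192 and 90.9 TPM in *T. mairei* and 91.0, 61.0 and 42.9 TPM in *T. cuspidata*. Its libraries overlapped between *T. media* and both other species. The HOTHEAD-named comp16015_c0 (582 bp) had 46.5, 48.0 and 45.1 TPM in *T. media*, 80.8, 121 and 71.8 TPM in *T. mairei* and 39.5, 52.0 and 43.4 TPM in *T. cuspidata*. It was the steadiest of the abundant unigenes between *T. media* and *T. cuspidata*, at 46.5 ± 1.48 TPM in *T. media* and 45.0 ± 6.43 TPM in *T. cuspidata* (SD, n = 3 each), and all 3 *T. mairei* libraries lay above these.

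By mean TPM, 20 of the 27 unigenes were highest in *T. mairei*, 4 in *T. media* and 3 in *T. cuspidata*. Leaving out *T. mairei* replicate 2, an alternative added after seeing the values, gave 15 in *T. mairei*, 8 in *T. media* and 4 in *T. cuspidata*. The counts were tested by edgeR's quasi-likelihood test in one model of the 8 libraries with counts. DEGs were those with a more than 1 log2 unit difference and an adjusted p (Benjamini-Hochberg, over the 32624 unigenes tested) below 0.05. Of the 27, 26 passed the filter on low counts and 1 did not (comp54731_c0). Over the 3 comparisons, 5 unigenes were DEGs in all 3, 20 in a pair of them and 1 in a single one, against 9.32, 38.7 and 14.0% of all unigenes tested. One of the 3 is the comparison for which the unigenes were chosen, and the comparisons share their libraries, so nothing is read from these numbers. Where a species had no read, the fold is a lower bound against 3 counts summed over its libraries, and such bounds, like the counting intervals below, cover counting error only.

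When *T. media* was set against *T. cuspidata*, 11 of the 26 tested unigenes were DEGs. Of these, 8 were higher in *T. media*, and 3 had more in *T. cuspidata*. The share of DEGs among all unigenes was 25.8%, made up of 15.7% for *T. media* and 10.1% for *T. cuspidata* as the higher species. The median log2 fold change was 0.17 over the 26 and 0.04 over all unigenes tested. The TPM of the libraries did not overlap for 13 of the 27, against 49.4% of all unigenes. Of the 13, 8 were higher in *T. media* (background 29.6%), and 5 in *T. cuspidata* (background 19.8%). By library overlap the 27 therefore stood close to the background. Although this comparison was not used to choose the unigenes, it shares the *T. cuspidata* libraries with the one that was.

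Of the unigenes higher in *T. media*, comp28191_c0 (At1g73050) was the most abundant of all 27 there. It had 155, 167 and 165 TPM in *T. media* against 62.04, 42.5 and 40.1 TPM in *T. cuspidata*, with no overlap (log2 fold change 1.75, standard error 0.39, adjusted p = 0.0091). The At1g73050 unigene comp29436_c0 (941 bp) had 118, 89.6 and 78.0 TPM in *T. media* against 31.2, 20.9 and 22.4 TPM in *T. cuspidata*. Its log2 fold change was 2.01 (standard error 0.22, adjusted p = 0.00034). Both calls held under all 18 alternatives.

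The longest of the 27, comp24451_c0 (At1g73050), had 18.2, 20.4 and 23.1 TPM in *T. media*, 1.56, 1.74 and 1.91 TPM in *T. mairei* and 0.50, 0.08 and 1.12 TPM in *T. cuspidata*. Every *T. media* library was above all libraries of the other species, and the *T. mairei* libraries were also all above those of *T. cuspidata*. Against *T. cuspidata*, the log2 fold change in *T. media* was 5.09 (standard error 0.74, adjusted p = 0.0014). Against *T. mairei* it was 2.94 (standard error 0.78, adjusted p = 0.013). The call against *T. mairei* was lost without *T. mairei* replicate 1, and without replicate 2 (3.03, adjusted p = 0.073), where a single *T. mairei* library with counts is left and its spread is taken from the other species.

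The unigenes nearly or wholly absent from *T. cuspidata* followed. MDL4-named comp21504_c0 (505 bp) had 48.3, 31.6 and 17.5 TPM in *T. media* against 0.15, 0.06 and 0 TPM in *T. cuspidata*. With 3 *T. cuspidata* reads in all, the ratio was 403 with a 95% counting interval of 138 to 1950 (adjusted p = 0.0045). All *T. media* libraries lay far above those of *T. cuspidata*.

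Both unigenes of component comp28467, named At1g73050, were listed at 0 in all *T. cuspidata* libraries. The TPM of comp28467_c0 (959 bp) were 6.09, 5.99 and 4.51 in *T. media*, at least 213-fold higher than in *T. cuspidata* (adjusted p = 0.019). Those of comp28467_c1 (423 bp) were 19.3, 26.1 and 17.7 in *T. media*, at least 234-fold higher than in *T. cuspidata* (adjusted p = 0.0095). The call of comp28467_c0 was lost without *T. media* replicate 1.

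At1g73050-named comp16053_c0 (421 bp) had 11.1, 2.04 and 3.58 TPM in *T. media* but 0 in every *T. cuspidata* library, at least 67.4-fold higher in *T. media* (adjusted p = 0.031). The only MDL2 unigene, comp52290_c0 (419 bp), had 1.79, 1.34 and 2.33 TPM in *T. media* but 0 in every *T. cuspidata* library, at least 20.5-fold higher in *T. media* (adjusted p = 0.045). Neither call was firm. That of comp16053_c0 was lost without *T. media* replicate 1 or 3 or any *T. cuspidata* replicate, and that of comp52290_c0 without any single library of either species.

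Higher in *T. cuspidata* were 3 At1g73050 unigenes. comp22271_c0 (1116 bp) had 0.02, 0.10 and 0.02 TPM in *T. media*, 0.32, 0.16 and 0 TPM in *T. mairei* and 9.0, 3.96 and 4.75 TPM in *T. cuspidata* (log2 fold change -7.07 for *T. media* vs. *T. cuspidata*, standard error 0.68, adjusted p = 0.00019). comp132792_c0 (511 bp) had 0.11, 0 and 0.44 TPM in *T. media*, 0, 0.17 and 0.34 TPM in *T. mairei* and 5.91, 9.24 and 6.62 TPM in *T. cuspidata* (log2 fold change -5.29 for *T. media* vs. *T. cuspidata*, standard error 0.99, adjusted p = 0.0041). Both were thus close to absent outside *T. cuspidata*.

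The third, comp17112_c1 (434 bp), had 2.26, 5.81 and 4.11 TPM in *T. media*, 0 in all *T. mairei* libraries and 15.9, 13.0 and 8.34 TPM in *T. cuspidata*. *T. media* lay between the other species, without overlap with either. Its log2 fold change was -1.68 for *T. media* vs. *T. cuspidata* (standard error 0.45, adjusted p = 0.024), a call lost without *T. media* replicate 3, *T. cuspidata* replicate 1 or *T. cuspidata* replicate 2. Against *T. mairei*, where no read was counted, it was at least 29.7-fold higher in *T. media* (adjusted p = 0.00061).

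The other 15 tested unigenes did not pass the thresholds between *T. media* and *T. cuspidata*. The nearest were comp17112_c0 (-0.94, adjusted p = 0.019), under the fold threshold but a DEG without *T. media* replicate 2 or *T. cuspidata* replicate 3, and comp24199_c0 (-1.32, adjusted p = 0.060), which became a DEG without *T. cuspidata* replicate 1, *T. mairei* replicate 1 or *T. mairei* replicate 2. The libraries of comp24199_c0 did not overlap, with 3.27, 3.25 and 3.77 TPM in *T. media* and 5.62, 11.2 and 7.5 TPM in *T. cuspidata*. HTH-named comp6070_c0 (262 bp) had 18.7, 6.25 and 11.6 TPM in *T. media* and 8.44, 3.62 and 3.77 TPM in *T. cuspidata* (1.16, adjusted p = 0.10), and was a DEG without *T. cuspidata* replicate 1. MDL4-named comp29436_c1 (421 bp) had 37.6, 27.03 and 28.7 TPM in *T. media* and 61.9, 37.02 and 33.7 TPM in *T. cuspidata* (-0.58, adjusted p = 0.091). In both, the libraries of the species overlapped.

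Several At1g73050 unigenes of low or middling abundance had overlapping libraries. comp28191_c1 (981 bp) had 10.3, 8.41 and 7.0 TPM in *T. media* and 8.58, 6.36 and 7.18 TPM in *T. cuspidata* (0.13, adjusted p = 0.58). comp17995_c0 (228 bp) had 3.06, 6.39 and 5.04 TPM in *T. media* and 3.21, 10.5 and 6.26 TPM in *T. cuspidata* (-0.56, adjusted p = 0.51). comp10492_c0 (349 bp) had 1.82, 5.60 and 1.53 TPM in *T. media* and 4.97, 5.96 and 9.0 TPM in *T. cuspidata* (-1.28, adjusted p = 0.24). All 3 overlapped between the species. comp2986_c0, with 28 *T. media* reads and 1 *T. cuspidata* read, had a ratio of 27.7 (95% counting interval 4.98 to 1100, adjusted p = 0.094) and became a DEG without *T. media* replicate 3.

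**Figure D3:**
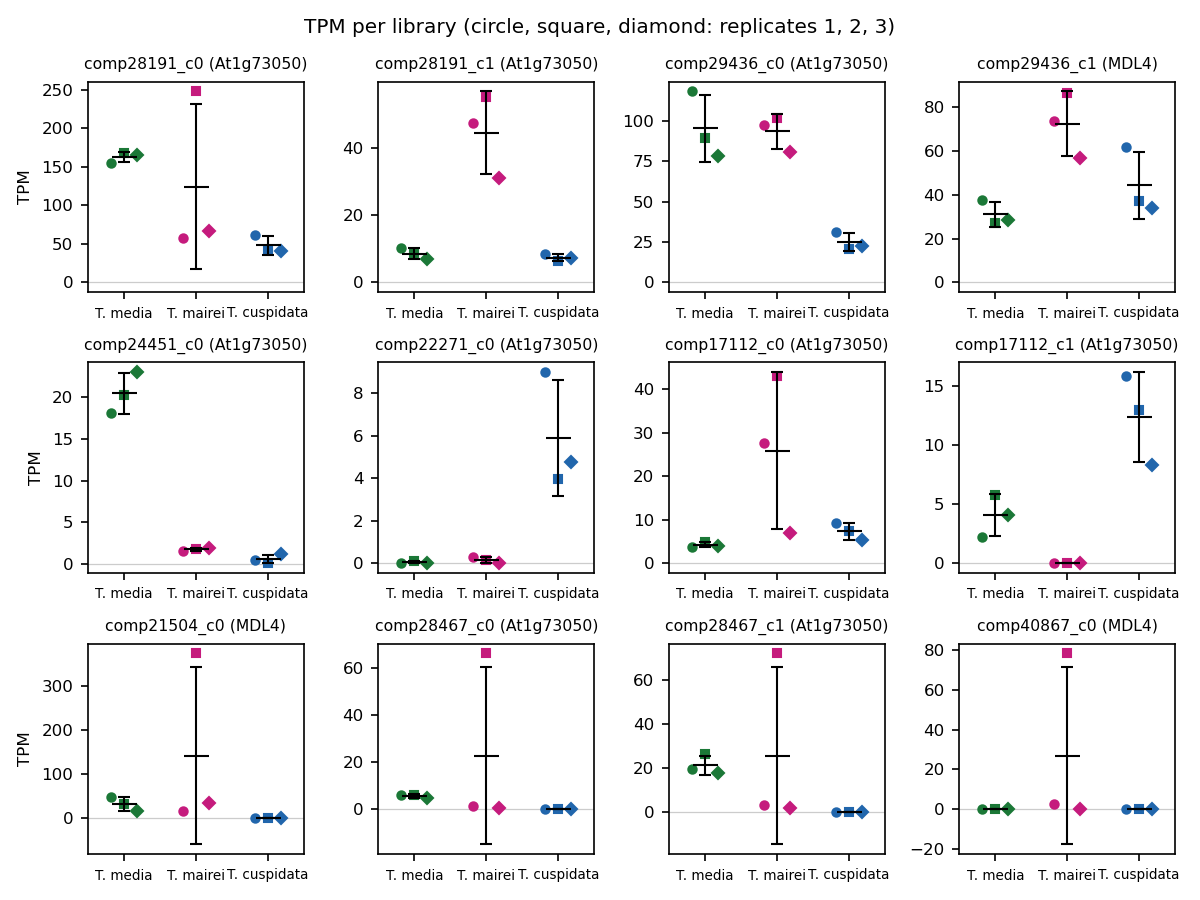
TPM of 12 of the unigenes by species, with symbols for the 3 libraries and black marks for mean ± SD (n = 3); each panel has its own linear axis, and an SD larger than its mean reaches below 0. The upper rows hold pairs of one component beside comp24451_c0 and comp22271_c0, which were highest in *T. media* and *T. cuspidata*; in the lower row the square of *T. mairei* replicate 2 stands apart.

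When *T. media* was set against *T. mairei*, 20 of the 26 tested unigenes were DEGs. Only 3 were higher in *T. media*, and 17 in *T. mairei*. Among all unigenes 44.3% were DEGs, made up of 20.8% for *T. media* and 23.5% for *T. mairei* as the higher species. The median log2 fold change was -2.69 over the 26 and 0.02 over all unigenes tested. By TPM of the libraries, 13 of the 27 did not overlap, against 72.8% of all unigenes. Of the 13, 3 were higher in *T. media* (background 50.8%), and 10 in *T. mairei* (background 22.0%). The counts come from *T. mairei* replicates 1 and 2, the libraries that were among those used to choose the unigenes. On log2(TPM + 1) the median of all unigenes was 0.60 in place of 0.02, so folds from the counts favour *T. mairei* more than ratios of the TPM printed here, and limma on that scale called 12 of the 27, 9 of them higher in *T. mairei*.

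*T. mairei* replicate 2 stood apart from the other *T. mairei* libraries in many of these unigenes. Of the 27 unigenes, 11 had at least 5 TPM there and at least 5 times the value of both other *T. mairei* libraries, against 0.389% of all unigenes (132). This rule was made after seeing the values. In each of the other 8 libraries, no unigene of the 27 met the same rule against the other libraries of its species. Of all unigenes, 1.36% met it in *T. media* replicate 1, 1.76% in *T. cuspidata* replicate 1, 0.0856% in *T. mairei* replicate 1, and 0.165 to 0.496% in the remaining libraries. At 3 times the count was 12, and at 10 times it was 8, with no share of all unigenes beside them, so nothing is read from these counts. The 11 summed to 61.0 TPM in *T. mairei* replicate 1, 1203 TPM in replicate 2 and 66.0 TPM in replicate 3, which was 9.09, 55.6 and 12.2% of all 27. In *T. media* their share was 9.22 to 14.5%, and in *T. cuspidata* 1.39 to 3.63%. The other 16 summed to 610.1 TPM in replicate 1, 959 TPM in replicate 2 and 477 TPM in replicate 3, so replicate 2 was also the highest there but by less.

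Of these 11, 8 were listed at 0 in all *T. cuspidata* libraries, and they included 4 of the 5 MDL unigenes and 2 of the 4 HTH unigenes. The other 5 were named At1g73050. The highest was comp21504_c0 (MDL4), with 17.4, 374 and 35.2 TPM in *T. mairei*. Of the 132 unigenes of the assembly that met the rule, 97 had no KEGG annotation. No share of all unigenes is set beside that number, so nothing is read from it. What set replicate 2 apart from the other *T. mairei* libraries was not tested. Its needle markers, at 3007 TPM, were the lowest of the 9 libraries, and its wood markers, at 129 TPM, lay between those of the other *T. mairei* libraries.

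Found almost wholly in this library were the shortest HTH unigenes and the MDL4 unigenes comp40867_c0 and comp90354_c0. HTH-named comp2578_c0 (209 bp) had 0 TPM in both *T. media* and *T. cuspidata* and 5.58, 115 and 0 TPM in *T. mairei*. MDL4-named comp40867_c0 (772 bp) had 0, 0.12 and 0 TPM in *T. media*, 2.35, 78.5 and 0 TPM in *T. mairei* and none in *T. cuspidata*. MDL4-named comp90354_c0 (316 bp) had 0 TPM in both *T. media* and *T. cuspidata* and 3.66, 96.5 and 0.23 TPM in *T. mairei*. In each of them replicates 1 and 3 were low or at 0, so that the mean of *T. mairei* is a poor summary.

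Tested against *T. media*, comp2578_c0 was at least 128-fold higher in *T. mairei* (adjusted p = 0.025) and comp90354_c0 at least 454-fold (adjusted p = 0.020). For comp40867_c0, with 3 *T. media* reads, the ratio of *T. mairei* to *T. media* was 1790 with a 95% counting interval of 613 to 8690 (adjusted p = 0.0046). Of its *T. mairei* reads 3305 came from replicate 2 and 115 from replicate 1, and from replicate 1 alone, an alternative added after seeing the values, the ratio was 111 (38.1 to 541). Without *T. mairei* replicate 2 the call of comp90354_c0 was lost (adjusted p = 0.054), that of comp40867_c0 held (adjusted p = 0.026), and comp2578_c0 no longer passed the filter on low counts. The call of comp2578_c0 was also lost without *T. media* replicate 1. Adding the reads of replicate 3 recovered from its RPKM ended all 3 calls. The HTH unigene comp54731_c0 (205 bp), which was not tested, had 1.87, 112 and 0 TPM in *T. mairei* and 0 elsewhere.

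Both comp28467 unigenes turned with this library. In *T. mairei*, comp28467_c0 had 1.48, 66.4 and 0.44 TPM and comp28467_c1 had 2.78, 72.3 and 1.55 TPM, so replicates 1 and 3 lay below every *T. media* library and replicate 2 above. The log2 fold change of comp28467_c1 for *T. media* vs. *T. mairei* was -1.55 (standard error 1.08, adjusted p = 0.27) and became 2.22 without replicate 2 (adjusted p = 0.026), a DEG in the opposite direction. For comp28467_c0 the values were -3.33 (adjusted p = 0.064) with replicate 2 and 1.20 (adjusted p = 0.097) without it. Leaving out replicate 1 instead made comp21504_c0, comp28467_c0 and comp28467_c1 DEGs higher in *T. mairei*, and leaving out *T. cuspidata* replicate 1 did so for comp28467_c0. The TPM of comp16053_c0 in *T. mairei* were 8.29, 144 and 22.1 (log2 fold change -4.48, standard error 1.24, adjusted p = 0.024), and without replicate 2 the log2 fold change was -1.29 (adjusted p = 0.35). Those of comp52290_c0 (MDL2) were 2.67, 55.2 and 0.91 (log2 fold change -4.68, standard error 1.17, adjusted p = 0.016), with -1.23 without replicate 2 (adjusted p = 0.28). Both calls were also lost without *T. media* replicate 2 or 3, and that of comp52290_c0 without *T. media* replicate 1.

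Without *T. mairei* replicate 2, 14 of the 20 calls against *T. mairei* were kept, and with comp28467_c1 the total was 15. The unigenes lost were comp16053_c0, comp24451_c0, comp2578_c0, comp26298_c0, comp52290_c0 and comp90354_c0. Of the 11 unigenes that met the rule for replicate 2, 7 of 10 tested were DEGs in the fit with it. Of the other 16, 13 were DEGs, against 44.3% of all unigenes tested. As the 11 were picked by their level in that library, these counts are a description only.

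**Figure D4:**
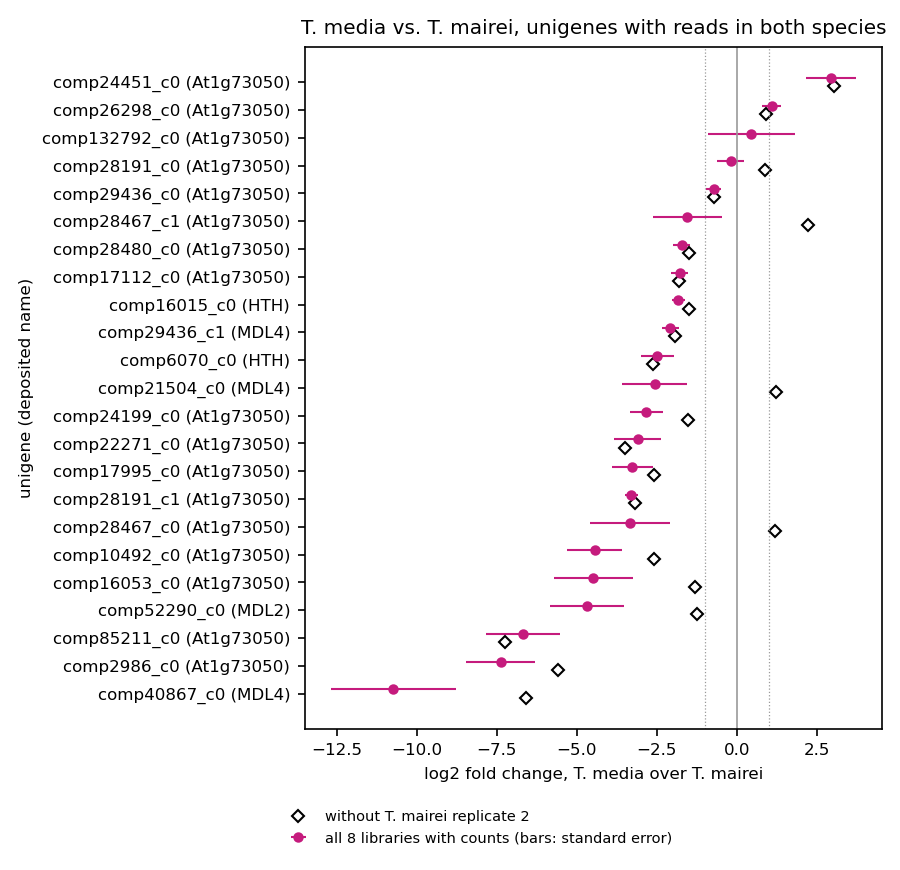
Log2 fold change of *T. media* over *T. mairei* for the unigenes with reads in both species, from all 8 libraries with counts (filled circles, bars of 1 standard error) and without *T. mairei* replicate 2 (open diamonds, drawn where *T. mairei* replicate 1 had reads); dotted lines mark the threshold of 1. The diamond of comp28467_c1 lies at 2.22, across 0 from its circle at -1.55, while comp28191_c1 hardly moves.

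Some differences from *T. mairei* did not rest on that library, and that of comp28191_c1 was the firmest by adjusted p. comp28191_c1 (At1g73050), at no more than 10.3 TPM in *T. media*, had 47.4, 55.3 and 31.0 TPM in *T. mairei*, without overlap. Its log2 fold change was -3.29 (standard error 0.19, adjusted p = 8.8e-06), and -3.17 without *T. mairei* replicate 2. The HOTHEAD-named comp16015_c0 was likewise higher in *T. mairei* (log2 fold change -1.82, standard error 0.20, adjusted p = 0.00017), at -1.49 without replicate 2. For comp28480_c0 it was -1.72 (standard error 0.27, adjusted p = 0.0012), although its TPM overlapped between both species.

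Both comp16015_c0 and comp28480_c0 missed the threshold under limma on log2(TPM + 1), a scale on which the median of all unigenes lies 0.60 higher. In *T. mairei*, MDL4-named comp29436_c1 had 73.8, 86.6 and 57.0 TPM (log2 fold change -2.07, standard error 0.26, adjusted p = 0.00038). HTH-named comp6070_c0 had 46.1, 37.7 and 33.5 TPM there (log2 fold change -2.48, standard error 0.51, adjusted p = 0.0041). Both were above *T. media* in every *T. mairei* library.

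Nearly silent in *T. media* and in *T. cuspidata* were the At1g73050 unigenes comp2986_c0 and comp85211_c0. comp2986_c0 (918 bp) had 0.38, 0.38 and 0 TPM in *T. media*, 7.61, 44.2 and 3.67 TPM in *T. mairei* and at most 0.02 TPM in *T. cuspidata* (log2 fold change -7.38 for *T. media* vs. *T. mairei*, standard error 1.07, adjusted p = 0.00072), and -5.60 without replicate 2 (adjusted p = 0.0092). comp85211_c0 (491 bp) had 0.12, 0 and 0.47 TPM in *T. media*, 19.5, 6.94 and 3.86 TPM in *T. mairei* and at most 0.30 TPM in *T. cuspidata* (log2 fold change -6.68 for *T. media* vs. *T. mairei*, standard error 1.16, adjusted p = 0.0017). In comp85211_c0 replicate 2 was not the highest *T. mairei* library, unlike in most of the 27.

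The remaining unigenes higher in *T. mairei* than in *T. media* were At1g73050 unigenes of lower abundance. In *T. mairei*, comp17995_c0 had 17.99, 39.6 and 16.1 TPM, and comp24199_c0 (1403 bp) had 6.08, 23.6 and 12.5 TPM. In both, each *T. mairei* library was above each *T. media* library. comp10492_c0 had 7.28, 44.1 and 1.88 TPM in *T. mairei*, with overlap. Their log2 fold changes were -3.27 for comp17995_c0, -2.82 for comp24199_c0 and -4.44 for comp10492_c0 (adjusted p between 0.0025 and 0.0031). Without replicate 2 they were -2.58, -1.52 and -2.60 in the same order, and all 3 were still DEGs (adjusted p between 0.017 and 0.041). comp22271_c0, at no more than 0.32 TPM in either species, had -3.10 (standard error 0.74, adjusted p = 0.0073), a call lost without *T. mairei* replicate 1 and with the recovered reads of replicate 3.

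Higher in *T. media*, beside comp24451_c0 and comp17112_c1 above, was comp26298_c0 (At1g73050), with 8.44, 6.43 and 7.78 TPM in *T. media*, 2.45, 1.90 and 3.76 TPM in *T. mairei* and 9.95, 5.13 and 5.95 TPM in *T. cuspidata*. Its log2 fold change for *T. media* vs. *T. mairei* was 1.09 (standard error 0.29, adjusted p = 0.014), and 0.93 without *T. mairei* replicate 2 (adjusted p = 0.099). Not past the thresholds were comp28191_c0 (-0.19, adjusted p = 0.73), which had 58.1, 248 and 66.4 TPM in *T. mairei*, comp29436_c0 (-0.72, adjusted p = 0.028), which had 97.4, 102 and 80.8 TPM there, comp132792_c0 (0.46, adjusted p = 0.80) and comp21504_c0 (-2.56, adjusted p = 0.064). Without *T. mairei* replicate 2 the value of comp21504_c0 was 1.22 (adjusted p = 0.23), across 0 but again not past the thresholds, and all 4 *T. mairei* reads of comp132792_c0 were from replicate 2. comp28191_c0 was higher in *T. media* than in *T. mairei* replicates 1 and 3 and lower than in replicate 2.

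The 2 unigenes of one component often differed in their pattern. Within a library their ratio does not depend on the scaling between libraries. It may depend on the transcript mix of comp17112_c0, comp28191_c0 and comp29436_c0, each with 3 transcripts, which was not tested. For component comp29436 the TPM of comp29436_c0 over comp29436_c1 was 2.72 to 3.31 in *T. media*, 1.18 to 1.42 in *T. mairei* and 0.504 to 0.664 in *T. cuspidata*, without overlap between species. For comp28191 the ratio of comp28191_c0 to comp28191_c1 was 15.2 to 23.6 in *T. media*, 1.23 to 4.49 in *T. mairei* and 5.58 to 7.23 in *T. cuspidata*, also without overlap. For comp17112, comp17112_c0 (629 bp) had 3.85, 4.94 and 3.95 TPM in *T. media*, 27.6, 42.9 and 6.99 TPM in *T. mairei* and 9.20, 7.37 and 5.37 TPM in *T. cuspidata*, whereas comp17112_c1 was at 0 in *T. mairei*. comp17112_c0 was the only unigene that was a DEG in a single comparison, *T. media* vs. *T. mairei* (-1.78, standard error 0.27, adjusted p = 0.00092). For comp28467 the ratio was 0.229 to 0.316 in *T. media* and 0.284 to 0.918 in *T. mairei*. These ratios were not tested.

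Between *T. mairei* and *T. cuspidata*, the comparison for which the unigenes were chosen, 25 of the 26 tested passed the thresholds, with *T. mairei* above in 21 and below *T. cuspidata* in 4. Among all unigenes 49.3% did, with *T. mairei* above in 27.8% and below *T. cuspidata* in 21.5%, and nothing is read from the difference. The libraries did not overlap in TPM for 18 of the 27, against 69.7% of all unigenes, with *T. mairei* above in 14 (background 26.3%) and below *T. cuspidata* in 4 (background 43.3%). Without *T. mairei* replicate 2 the number was 18, with comp10492_c0, comp17995_c0, comp24199_c0, comp24451_c0, comp2578_c0, comp26298_c0 and comp28191_c0 no longer past the thresholds. The 4 higher in *T. cuspidata* were comp132792_c0, comp17112_c1, comp22271_c0 and comp26298_c0. The unigene not past the thresholds was comp17112_c0, which passed them under limma on log2(TPM + 1) and without *T. cuspidata* replicate 1.

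Among the abundant unigenes, the log2 fold change of *T. mairei* vs. *T. cuspidata* was 2.73 for comp29436_c0, 1.94 for comp28191_c0, 1.92 for comp28480_c0 and 1.78 for comp16015_c0. That of comp28191_c1 was 3.42, and comp29436_c1 had 1.49. In the fit with both *T. mairei* libraries with counts, all 4 abundant unigenes were higher in *T. mairei*, which is a description only. Without *T. mairei* replicate 2 the log2 fold change of comp28191_c0 was 0.86. That of comp29436_c0 was then 2.71, that of comp28480_c0 1.7 and that of comp16015_c0 1.46. Neither limma fit called comp16015_c0 or comp28191_c0, and both called comp29436_c0 and comp28480_c0. The TPM of comp28191_c0 and comp28480_c0 overlapped between the species, and those of comp29436_c0 and comp16015_c0 did not. The largest bounds belonged to unigenes with no *T. cuspidata* read: comp28467_c0 was at least 1980-fold, comp40867_c0 at least 1780-fold and comp16053_c0 at least 1300-fold higher in *T. mairei*. These bounds rest on replicate 2, and from the reads of replicate 1 alone (96, 115 and 157) they were 92.2, 110.0 and 151.

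Other genes of the same chemistry were read from lists by name or KEGG ortholog. The 6 unigenes named for long-chain alcohol oxidases (FAO), the remaining GMC oxidoreductases of the assembly by name, gave 5 that were tested. None was a DEG between *T. media* and *T. cuspidata*, against 25.8% of all unigenes tested. With 5 tested, no contrast with the 27 is read from this. Of the 5, comp18730_c0 (0.62, adjusted p = 0.027) and comp21390_c0 (0.39, adjusted p = 0.049) had an adjusted p below 0.05 under the fold threshold. Between *T. media* and *T. mairei*, comp28920_c0 (FAO4A), the most abundant, was higher in *T. media* at 24.3, 23.2 and 19.2 TPM against 4.69, 6.06 and 3.60 TPM in *T. mairei* (log2 fold change 1.25, adjusted p = 0.0037), and comp18730_c0 (FAO4B, -2.20, adjusted p = 6.7e-05) and comp21390_c0 (FAO4A, -1.89, adjusted p = 3.4e-05) were higher in *T. mairei*. Thus 1 was higher in *T. media* and 2 in *T. mairei* (20.8 and 23.5% of all unigenes tested). *T. mairei* replicate 2 did not stand out in these unigenes, with 15.4 TPM of comp18730_c0 against 18.3 and 27.1 TPM in the other *T. mairei* libraries. The 5 unigenes annotated as hydroxymandelonitrile lyases belong to the serine carboxypeptidase family and not to the GMC oxidoreductases. They had 1 DEG higher and 1 lower in *T. media* against *T. cuspidata* (15.7 and 10.1% of all unigenes). Against *T. media*, 4 were higher in *T. mairei* (23.5% of all unigenes). The number of DEGs against *T. mairei* was 1 without *T. mairei* replicate 2, without *T. media* replicate 2 and under limma, and 2 without *T. mairei* replicate 1. Against *T. cuspidata* it was 1 with library sizes only and under limma.

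Of 15 unigenes for choline and betaine metabolism, 2 were higher and 2 lower in *T. media* against *T. cuspidata* (15.7 and 10.1% of all unigenes tested). The median log2 fold change was -0.14. comp8423_c0 (Pcyt1b), for the enzyme that activates phosphocholine with CTP for membrane lipids, had 15.1, 18.9 and 20.5 TPM in *T. media* but was listed at 0 in *T. cuspidata*, at least 841-fold higher in *T. media* (adjusted p = 1.2e-05). Another unigene for this enzyme, comp17468_c0 (PCYT1B), had 23.3, 18.9 and 17.8 TPM in *T. media* against 44.2, 53.1 and 61.4 TPM in *T. cuspidata* (log2 fold change -1.49). Against *T. mairei*, 1 was higher and 6 were lower in *T. media* (20.8 and 23.5% of all unigenes tested), with a median of -0.81. The unigene higher in *T. media*, comp26810_c0 (PCYT1B), was the most abundant of the list. It had 239 ± 24.6 TPM in *T. media* against 11.8 ± 0.937 TPM in *T. mairei* (SD, n = 3 each), a log2 fold change of 3.69. For the same enzyme, comp8423_c0 went the other way, with 192, 180 and 208 TPM in *T. mairei* (log2 fold change -4.05). A betaine aldehyde dehydrogenase unigene, comp6849_c0 (ALDH10A9), was listed at 0 in *T. media* and had 62.5, 57.3 and 93.4 TPM in *T. mairei*. It was at least 1830-fold higher in *T. mairei* (adjusted p = 8.2e-05). Another unigene of this name, comp25333_c0 (2062 bp), went the other way but under the fold threshold. It had 106, 102 and 97.3 TPM in *T. media* and 49.6, 39.5 and 39.0 TPM in *T. mairei* (log2 fold change 0.48). The choline monooxygenase unigenes comp12574_c0 and comp19627_c0, for the plant enzyme that makes betaine aldehyde, were no DEGs in any of the 3 comparisons.

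The cutin list held 40 unigenes named for fatty acid hydroxylases (CYP86, CYP77), acyl-CoA synthetases and acyltransferases. These families include the chemistry in which HOTHEAD acts in *Arabidopsis*, but whether each unigene serves cutin was not tested. The counts below describe a list by name and do not measure cutin synthesis. Of the 40, 8 were higher and 5 lower in *T. media* against *T. cuspidata* (15.7 and 10.1% of all unigenes tested). The median log2 fold change was -0.02. Against *T. mairei*, 12 were higher and 12 lower in *T. media* (20.8 and 23.5% of all, median 0.37). The *T. mairei* vs. *T. cuspidata* comparison had 10 higher and 11 lower in *T. mairei* (27.8 and 21.5% of all, median -0.15). The list thus held DEGs in both directions in each comparison, as did all unigenes. Of named unigenes, comp23369_c0 (CYP86A2) had 86.5, 42.5 and 44.2 TPM in *T. media* against 2.87, 0.30 and 0.35 TPM in *T. cuspidata* (log2 fold change 5.10, standard error 0.50, adjusted p = 0.00021). comp17378_c0, also CYP86A2, had 5.67, 8.03 and 7.92 TPM in *T. media* against 33.2, 33.0 and 32.9 TPM in *T. cuspidata* (log2 fold change -2.27, standard error 0.26, adjusted p = 0.00043).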

How the data were processed

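The authors sequenced poly(A) RNA of the twigs, assembled the reads of all species together with Trinity 2.4.0 and deposited, for each unigene, its length, annotation, TPM and expected count in 8 libraries. For *T. mairei* replicate 3 they deposited TPM and RPKM. The tool that counted reads is not given in the sources used here. No genome and no unigene sequence was used. Samples were grouped by the species in their labels. Expected counts were rounded to whole numbers and tested in edgeR 4.0.16 (R 4.3.3) with TMM, filterByExpr by species and the quasi-likelihood test. The plan was 9 libraries, and the fit holds 8. The reads of *T. mairei* replicate 3 were recovered from its RPKM for an alternative: assuming 38040000 reads in all, 97.8% of the 3289 low values tried gave a whole number (tolerance 0.1 read). The other alternatives used DESeq2 1.42.0, limma 3.58.1 on log2(TPM + 1) or log2(TPM + 0.1), other scalings and filters, a replicate block and each library left out. The fits were tested on simulated data.

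Members and lists were chosen with earlier results of these data known. Named in full by rule were the 3 highest mean TPM per species, the 3 highest and 3 lowest log2 fold changes per comparison and the unigenes called in all comparisons or none. A planned list of unigenes from other organisms could not be applied, as the annotation columns name no source organism. The text search for other GMC oxidoreductases also caught the hydroxymandelonitrile lyases, which were kept apart.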

Additional observations from a re-analysis of the deposited data

How the results depend on the processing

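Of 1377 values of single unigenes under 18 alternatives, 1 changed direction while called: comp28467_c1 for *T. media* vs. *T. mairei*, at 2.22 without *T. mairei* replicate 2 and -2.5 without replicate 1, the range over its left-out libraries. With each library left out in turn, 8 to 12 of the 27 were DEGs when *T. media* was compared with *T. cuspidata*, 15 to 22 when it was compared with *T. mairei*, and 18 to 25 between *T. mairei* and *T. cuspidata*. The TPM did not overlap for 13 to 17, 13 to 20 and 18 to 24 unigenes in the same comparisons, the 20 coming without *T. mairei* replicate 3. No share of all unigenes in the same setting stands beside the member counts of this section. They are therefore not compared with the background. Without *T. media* replicate 1, and under limma on log2(TPM + 1), 5 were higher in *T. media* than in *T. cuspidata* in place of 8. Limma on log2(TPM + 1) called 12 between *T. media* and *T. mairei*, and 16 between *T. mairei* and *T. cuspidata*; limma on log2(TPM + 0.1) called 13 for *T. media* vs. *T. mairei*. On log2(TPM + 1) the share of DEGs of all unigenes that were higher in *T. media* was 65.1% against *T. mairei*, in place of 47.0% from the counts, and the share higher in *T. mairei* against *T. cuspidata* was 41.0% in place of 56.3%. With library sizes only, 70.8% of those between *T. media* and *T. cuspidata* were higher in *T. media*, in place of 60.9%. By mean TPM, 8 unigenes were highest in *T. media*, 15 in *T. mairei* and 4 in *T. cuspidata* without *T. mairei* replicate 2. The cause of these changes was not tested. With the recovered reads, 15 were called between *T. media* and *T. mairei*, and 20 between *T. mairei* and *T. cuspidata*.

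Replicate numbers did not pair the libraries. Same-numbered libraries of different species had correlations of -0.06 to 0.04 in their deviations from the species means, and the best match in another species carried the same number in 7 of 18 cases. With the replicate number as a block, 9 were called between *T. media* and *T. cuspidata*, 18 between *T. media* and *T. mairei*, and 25 between *T. mairei* and *T. cuspidata*. *T. mairei* holds 2 libraries with counts, and the lone one left when either is dropped takes its spread from the other species. Unigenes with few reads, such as comp2578_c0, comp54731_c0 and comp132792_c0, passed or missed the filter by its setting.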
